A study of Mus musculus with 4 samples.

Results

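Neural crest and Schwann lineage genes were followed in *Eya1*-lineage cells of the embryonic mouse kidney, in which *Eya1* encodes a transcriptional coactivator that nephron progenitor cells (NPCs) need. The set held 8 genes of the 52636 in the count tables, and its members were given by gene symbol, with earlier results of these data known: *Sox10*, *Sox2*, *Foxd3*, *Erbb3*, *Ngfr*, *Ednrb*, *S100b* and *Fabp7*. The deposited values are reads counted per gene in 4 libraries, Control 1 and 2 and *Eya1*cKO 1 and 2, each made from 5000 FACS-sorted tdTomato+ cells of embryonic kidneys collected at about E12.5 to E12.75, 48 h after the start of tamoxifen. Embryos of both groups shared a mixed background of C57BL/6J with another inbred strain and carried the *Eya1* CreER allele and the R26-tdTomato reporter, and *Eya1*cKO embryos carried in addition *Eya1* fl/fl. CreER stood in the *Eya1* locus, so the sort took cells in which that locus had been active and CreER had acted, in controls as in mutants, and controls too carried the CreER allele. Each genotype was represented by 6 kidneys taken from 4 dams, as the labels state it, while the methods of the study also give other numbers. Cell suspensions were combined before the sort and the libraries of a genotype were separate portions of sorted cells. So p-values here measure the spread between such portions, which may be technical, and not the spread between embryos.

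The neural crest is an embryonic population that leaves the border of the neural tube and gives rise to peripheral neurons, glia, melanocytes and the chromaffin cells of the adrenal medulla. Its glial branch passes through Schwann cell precursors, which travel along nerves and depend on the receptor ErbB3 and its neuregulin ligands. Sox10 and Foxd3 are transcription factors of migrating crest and early glia, Sox2 holds cells of this branch in an immature state, and S100b and Fabp7 are cytoplasmic proteins commonly used as glial markers. The receptors are less particular to this lineage, since Ngfr and Ednrb are also made by mesenchymal and vascular cells and Erbb3 by epithelia.

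The libraries held between 17457452 and 37999342 reads on genes, with the *Eya1*cKO libraries the shallower pair. Other library measures also split by genotype: reads on no gene were 12.9% to 13.9% in Control and 20.9% to 22.7% in *Eya1*cKO, unaligned reads 6.32% to 6.69% and 12.7% to 12.9%, and genes with a read 26486 to 27091 and 20538 to 21455. Their part in the differences reported here, those of *Sox10*, *Sox2* and *Ngfr* included, was not tested. *Eya1* itself, the targeted gene, had 6612 and 6420 reads in Control against 377 and 219 in *Eya1*cKO. The 6 NPC markers checked (*Six2*, *Cited1*, *Sall1*, *Osr1*, *Meox1* and *Eya1*) summed to 975 to 1001 CPM (reads per 1000000, with totals scaled by TMM in edgeR) in Control and to 177 to 223 CPM in *Eya1*cKO. Differences between genotypes were tested with edgeR's quasi-likelihood test over the 19041 genes that passed its low-count filter, and a gene was called where its Benjamini-Hochberg adjusted *P* over all these genes was under 0.05. Log2 fold changes (log2FC) are *Eya1*cKO over Control, with their standard error (SE). The smallest amount that 3 reads could show lay between 0.0801 and 0.0859 CPM in Control and between 0.133 and 0.171 CPM in *Eya1*cKO, which covers counting error only, as do the counting intervals given for single genes.

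Of the 8 members, 7 passed the low-count filter, 2 of them rose in *Eya1*cKO, 1 fell and 4 were not called. Across all genes tested, 9.56% were called, 5.15% higher and 4.41% lower. An unadjusted *P* under 0.05 in edgeR was reached by 5479 of these 19041 genes. For 6 members both *Eya1*cKO libraries lay above both controls and for 2 both lay below, whereas 55.3% of all genes tested had groups that did not overlap (25.3% with *Eya1*cKO higher and 30% with it lower). The 6 include *Foxd3*, which was not tested, so this share covers genes unlike it. *Foxd3* had 3 reads in both Control 1 and *Eya1*cKO 2, and these libraries differed in CPM (0.0859 and 0.171) only through depth. The median log2FC of the 7 members tested was 0.60, beside 0.02 for all genes tested. Only 1 gene, *Foxd3*, had too few reads to be tested. Since RNA was taken from a pool of cells, more cells of a type and more RNA per cell cannot be told apart in any of these values.

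**Figure D1:**
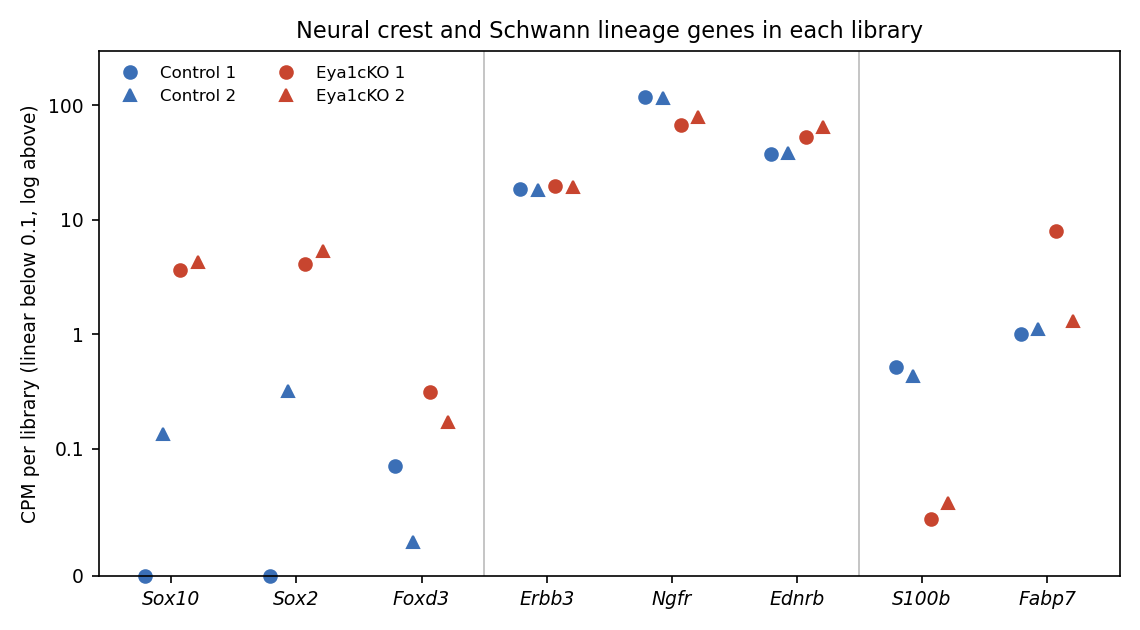
Level of each member in each library, in CPM, on an axis that is linear below 0.1 and logarithmic above it, with Control in blue, *Eya1*cKO in red, circles for library 1 and triangles for library 2; vertical lines separate transcription factors, receptors and cytoplasmic proteins. *Sox10* and *Sox2* stood at 0 to 0.32 CPM in Control and at 3.67 to 5.3 CPM in *Eya1*cKO, the 3 receptors had the highest CPM in every library, which is not divided by gene length, and *Fabp7* was high in 1 *Eya1*cKO library.

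Sequences at the start sites of members are shown because the study looked for motifs, that of the repressor REST among them, at DNA bound by Eya1. Windows from 250 bases before to 50 bases after the RefSeq start (GRCm38.p6) were at hand for 6 of the 8 members, all but *Sox10* and *Erbb3*. Those of *Sox2* (higher in *Eya1*cKO), *Ngfr* (lower) and *Ednrb* are printed 5′ to 3′ on the strand of the gene, with matches to the motifs searched in capitals. The RefSeq start need not be the outer end of the gene in GENCODE, and is not for *Sox2*, *Ngfr* and *Ednrb*. The *Sox2* window is chr3:34649745-34650044 (+), the *Ngfr* window chr11:95587649-95587948 (−) and the *Ednrb* window chr14:103843652-103843951 (−).
Sox2: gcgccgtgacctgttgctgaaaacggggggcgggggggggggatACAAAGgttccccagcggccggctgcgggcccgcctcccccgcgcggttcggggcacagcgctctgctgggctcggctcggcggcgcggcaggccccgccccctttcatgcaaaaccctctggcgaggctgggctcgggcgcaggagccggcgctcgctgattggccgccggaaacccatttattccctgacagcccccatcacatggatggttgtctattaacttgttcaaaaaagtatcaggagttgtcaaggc
Ngfr: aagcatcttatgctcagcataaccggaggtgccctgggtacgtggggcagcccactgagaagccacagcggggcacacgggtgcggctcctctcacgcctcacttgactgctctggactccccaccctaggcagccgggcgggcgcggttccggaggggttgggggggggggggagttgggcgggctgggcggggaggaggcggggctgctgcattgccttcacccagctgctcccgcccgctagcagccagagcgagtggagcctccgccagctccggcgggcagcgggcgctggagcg
Ednrb: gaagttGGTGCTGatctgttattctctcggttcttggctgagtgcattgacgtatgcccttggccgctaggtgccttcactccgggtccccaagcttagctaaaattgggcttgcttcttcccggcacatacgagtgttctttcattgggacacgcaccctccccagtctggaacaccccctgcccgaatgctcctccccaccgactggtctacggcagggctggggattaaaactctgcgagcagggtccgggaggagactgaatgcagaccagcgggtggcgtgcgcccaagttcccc

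Both strands were searched for parts of the RE1 element bound by REST (TTCAGCACC, its core CAGCACC, and GGACAG from the opposite end), for Sox-type sites (ACAAAG and ACAATG), for the MEF3 site (TCAGGTTTC) and for E-boxes (CANNTG), which are not in capitals. CAGCACC lies within TTCAGCACC, so a match to the longer form is also one to the shorter. The capitals in *Sox2* mark ACAAAG, at positions -206 to -201 from the start, a string found in 18.7% of the 32851 promoter windows in the table. In *Ednrb* they mark the reverse complement of CAGCACC, which 7.14% of windows hold. *Ngfr*, *Foxd3*, *S100b* and *Fabp7* had none of these strings in the window, apart from E-boxes, which 72.3% of windows hold. The other shares were 0.371% for TTCAGCACC, 22.2% for GGACAG, 12.6% for ACAATG and 0.429% for TCAGGTTTC. The windows of the genes also differed in composition, with 27 CpG dinucleotides in *Sox2*, 25 in *Foxd3*, 23 in *Ngfr* and 15 in *Ednrb*, but 6 in *Fabp7* and 3 in *S100b*, beside a median of 7 over all windows.

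The transcription factors *Sox10* and *Sox2* both rose, from 12 reads or fewer in each control. *Sox10* (ENSMUSG00000033006), a protein-coding gene on chromosome 15 from 79154908 to 79165240 of GRCm38, drew 0 reads in Control 1 and 5 in Control 2, against 83 in *Eya1*cKO 1 and 75 in *Eya1*cKO 2. Both *Eya1*cKO libraries were well above both controls and close to each other. Its level went from 0.0668 ± 0.0944 to 3.97 ± 0.426 CPM (SD, n = 2 libraries each), giving a log2FC of 5.74 ± 1.24 (SE; edgeR adjusted *P* = 0.035). *Sox2* (ENSMUSG00000074637), located on chromosome 3 from 34650405 to 34652461, drew 0 and 12 reads in Control against 93 and 93 in *Eya1*cKO. Its level went from 0.16 ± 0.227 to 4.71 ± 0.838 CPM, giving a log2FC of 4.77 ± 1.10 (SE; edgeR adjusted *P* = 0.032). For both genes Control 1 was at 0 reads and Control 2 was not, and both entered the test only through their reads in *Eya1*cKO, since the controls alone would not have passed the low-count filter. The ratio of *Eya1*cKO to Control over the reads of both libraries was 57 for *Sox10* (exact 95% counting interval 23.9 to 178) and 27.9 for *Sox2* (15.6 to 55.1). The study named both genes among the upregulated ones on these same libraries, so their direction here is not independent evidence.

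These 2 calls were lost under several alternatives. Without Control 1 or without Control 2, the adjusted *P* was 0.59 in both cases for *Sox10*, and 0.65 and 0.61 for *Sox2*. The log2FC values were then 4.81 and 9.62 for *Sox10* and 3.81 and 9.85 for *Sox2*, where the larger of each pair was fitted against a control with no read and so depends on the prior count of the fit. The adjusted *P* was 0.071 and 0.061 without the low-count filter and 0.11 and 0.17 with the legacy quasi-likelihood method, and was as low as 3.1e-04 and 2.9e-04 with *Eya1*cKO 1 left out.

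*Sox2* lies inside the span of the noncoding gene *Sox2ot* but shares no exon with it in GENCODE M21. *Sox2ot* had 12 and 0 reads in Control against 37 and 0 in *Eya1*cKO, so its groups overlapped and it did not follow *Sox2* in *Eya1*cKO 2. The other genes of the SoxE group, to which *Sox10* belongs, had other profiles. *Sox9*, which progenitors and tubule cells of the kidney also use, fell from 73.9 ± 0.184 to 33.9 ± 6.01 CPM (log2FC -1.10 ± 0.18 SE, edgeR adjusted *P* = 0.013), and *Sox8* had 303 and 296 reads in Control against 318 and 36 in *Eya1*cKO. Without either control library *Sox9* was no longer called, with adjusted *P* values up to 0.41.

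*Foxd3* (ENSMUSG00000067261), a forkhead factor that marks early crest, was at the edge of detection in every library. It lies on chromosome 4 from 99656299 to 99658622 and drew 3 and 1 reads in Control against 7 and 3 in *Eya1*cKO, and 3 of the 4 libraries were at or under the 3-read limit. The ratio of *Eya1*cKO to Control over all reads was 4.51, with an exact 95% counting interval from 1.3 to 19.7, and the gene was left out of the test. An RNA gene, *Gm23366*, shares 3.83% of its exonic length.

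The 3 receptors took between 89.7% and 99.1% of the CPM summed over the members in each library, and 1 of them was called. *Ngfr* (ENSMUSG00000000120), the low-affinity neurotrophin receptor p75, lies on chromosome 11 from 95568818 to 95587735 and fell. It had 4136 and 4373 reads in Control against 1530 and 1379 in *Eya1*cKO. In CPM these were 118 and 117 against 67.7 and 78.6, so the controls were nearly equal and both mutants were lower. The log2FC was -0.69 ± 0.13 (SE; edgeR adjusted *P* = 0.021), and it lay between -0.81 and -0.59 over the alternatives. The direction held in each of them, while the adjusted *P* was 0.49 without Control 1 and 0.51 without Control 2 (lowest value in any alternative 2.1e-05).

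*Ednrb* (ENSMUSG00000022122), the endothelin receptor B that crest cells need to reach the gut and skin, lies on chromosome 14 from 103814625 to 103844402. It had 1324 and 1445 reads in Control against 1197 and 1131 in *Eya1*cKO, or 37.9 and 38.6 CPM against 53 and 64.5 CPM. Both *Eya1*cKO libraries lay above both controls, but the log2FC of 0.60 (SE 0.18, 95% interval 0.19 to 1.02) was not called (edgeR adjusted *P* = 0.082). It passed the threshold without *Eya1*cKO 1 (0.74, adjusted *P* = 5.6e-04) and without *Eya1*cKO 2 (0.45, adjusted *P* = 0.021), and its adjusted *P* ranged up to 0.71 over the alternatives.

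*Erbb3* (ENSMUSG00000018166), the kinase-impaired neuregulin receptor on which Schwann cell precursors depend, lies on chromosome 10 from 128567523 to 128589652 and had 651 and 680 reads in Control against 448 and 341 in *Eya1*cKO. In CPM its libraries were at 18.6 and 18.2 against 19.8 and 19.4. The groups did not overlap, but the log2FC was 0.10 (95% interval -0.54 to 0.73, edgeR adjusted *P* = 0.85). *Erbb3* thus stood at nearly the same CPM in the libraries with 75 or more *Sox10* reads as in those with 5 or fewer. The highest adjusted *P* over the alternatives was 0.97 and none was under 0.75.

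The cytoplasmic glial markers had differences of opposite sign, and neither was called. *Fabp7* (ENSMUSG00000019874), a brain-type fatty acid binding protein, lies on chromosome 10 from 57784881 to 57788450 and had 35 and 42 reads in Control against 181 and 23 in *Eya1*cKO. The higher mean in *Eya1*cKO came from *Eya1*cKO 1, at 8.01 CPM, whereas *Eya1*cKO 2 at 1.31 CPM stood little above the controls at 1 and 1.12. The log2FC of 2.25 (SE 0.94, edgeR adjusted *P* = 0.17) was 0.29 without *Eya1*cKO 1 and 2.89 without *Eya1*cKO 2, where it was called (adjusted *P* = 3.2e-04, range over the alternatives up to 0.83). The same library also had the most reads of 2 neural tube markers. *Olig2* had 98 reads in *Eya1*cKO 1 and 0 in each of the other 3 libraries, and *Pax6* had 183 there against 31 in *Eya1*cKO 2 and 42 and 46 in Control. The 5 neural tube markers together summed to 12.4 CPM in *Eya1*cKO 1 and to 1.77 to 3.01 CPM in the other libraries, and their part in the *Fabp7* value was not tested. 3 of these 5 (*Sox1*, *Sox3* and *Neurog2*) had no read in *Eya1*cKO and from 8 to 26 reads in each control.

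*S100b* (ENSMUSG00000033208), a calcium-binding protein of glia, lies on chromosome 10 from 76253853 to 76261159 within the span of *Dip2a* and had 18 and 16 reads in Control against 1 and 1 in *Eya1*cKO. Both mutants were thus below both controls, the opposite order to *Sox10*. The ratio of *Eya1*cKO to Control over all reads was 0.106, with an exact 95% counting interval from 0.0123 to 0.414. The log2FC of -3.13 (SE 1.31, edgeR adjusted *P* = 0.17) was not called in any alternative that gave an adjusted *P* for it, where that value lay between 0.17 and 0.74.

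**Figure D2:**
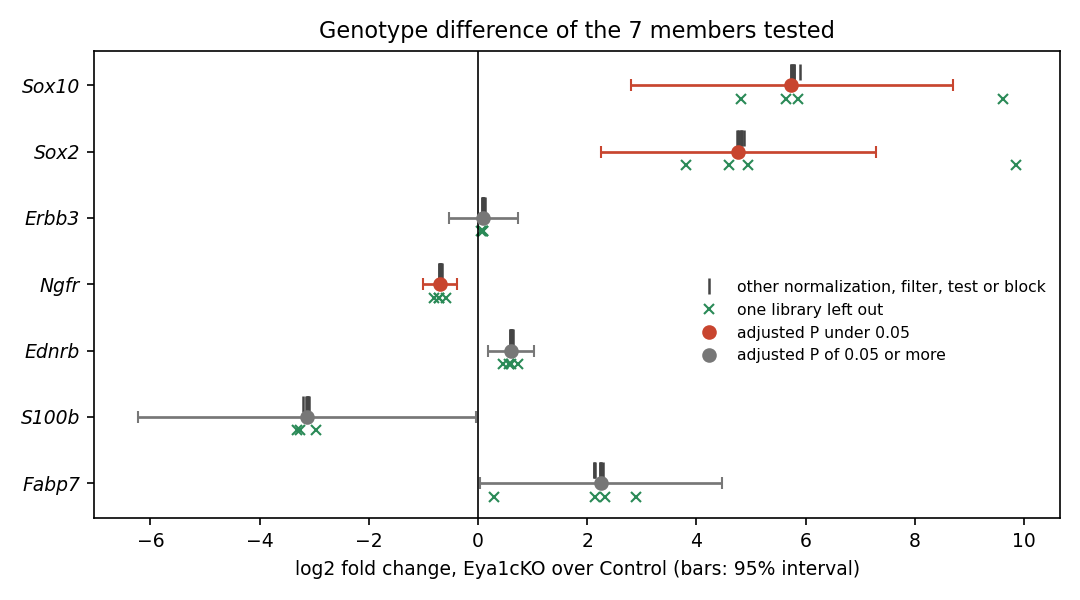
Log2 fold change of the 7 members tested, *Eya1*cKO over Control, with the 95% interval of edgeR's fit as bars, red for adjusted *P* under 0.05 and grey otherwise; ticks above each point are the other normalizations, filters, tests and the fit with the replicate number as a block, and crosses below it leave out 1 library each. *Sox10*, *Sox2* and *Ngfr* are the 3 called members, the crosses at 9.62 and 9.85 were fitted against a single control with no read, and *Fabp7* moves from 0.29 to 2.89 with the *Eya1*cKO library left out.

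Divided by exonic length, levels could be ordered between genes. In the controls *Ngfr* led with 34.1 ± 0.339 CPM per kb, followed by *Ednrb* with 8.97 ± 0.112, *Erbb3* with 3.06 ± 0.0566, *Fabp7* with 0.85 ± 0.0675 and *S100b* with 0.318 ± 0.042. *Sox2* (0.0779 ± 0.11), *Foxd3* (0.0242 ± 0.018) and *Sox10* (0.0219 ± 0.0309) came last and did not differ from each other beyond their spread. In *Eya1*cKO *Ngfr* (21.2 ± 2.24 CPM per kb) and *Ednrb* (13.8 ± 1.91) were again first. *Fabp7* (3.73 ± 3.79), *Erbb3* (3.26 ± 0.0456) and *Sox2* (2.29 ± 0.408) followed, and *Sox10* was at 1.3 ± 0.14. The libraries of *Fabp7* lay so far apart that they spanned *Erbb3*, *Sox2* and *Sox10*, but they did not reach *Ednrb*. Lastly came *Foxd3* (0.103 ± 0.0422) and *S100b* (0.0341 ± 0.00607). So *Sox10*, *Sox2* and *Foxd3* all passed *S100b* between the genotypes, while the order of *Ngfr* and *Ednrb* did not change. *S100b* had 1 read in each *Eya1*cKO library.

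The genes whose profile over the 4 libraries was most like that of *Sox10* were *Olfr531*, *Kcnk9*, *Tacr2*, *Gm10722* and *Gm16519*. Likeness was the Euclidean distance between log2 CPM values centred on each gene's mean, which was 0.246 for *Olfr531* and 0.482 for the fifth gene. *Olfr531*, an olfactory receptor gene, had 0 and 7 reads in Control against 94 and 80 in *Eya1*cKO. *Kcnk9*, a potassium channel gene, had 3 and 14 reads in Control against 234 and 151 in *Eya1*cKO. None of the 5 belongs to the lists of crest or glial genes used here, and 4 libraries allow many genes to share a profile.

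The wider crest, glial and signalling lists held 8 called genes, none of which was past the threshold when either control library was left out (adjusted *P* then up to 0.35 for *Pmp22*, the lowest of these, and up to 0.69 for *Nrg3*, the highest). *Nrg3* also missed it without *Eya1*cKO 1. Of 13 other crest transcription factors, 12 could be tested, none was called higher (DESeq2 called 1) and only *Sox9* was called lower. An unadjusted *P* under 0.05 in edgeR was reached by 3 of the 12, beside 5479 of all 19041 genes tested. Their median log2FC was -0.02. *Ets1*, which had the most reads of them (not divided by length) and is also made by endothelium, was at 111 ± 4.71 CPM in Control against 152 ± 27.9 in *Eya1*cKO (log2FC 0.47, edgeR adjusted *P* = 0.088). *Msx2* had 15 and 41 reads in Control against 0 and 0 in *Eya1*cKO, at least 5.02-fold lower against a limit of 3 reads per library (edgeR adjusted *P* = 0.14, not called). *Pax3*, which was not tested, had 1 and 53 reads against 0 and 0. Of the 13 genes, both *Eya1*cKO libraries lay above both controls for 2 and below both for 3.

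Of 13 Schwann cell precursor genes, 11 could be tested, 2 rose, none fell and 9 were not called. With DESeq2 none was called lower and 4 were called higher, beside 1523 called higher over all genes. The unadjusted *P* in edgeR was under 0.05 for 5 of the 11, beside 5479 of all 19041 genes tested. The median log2FC was 1.15. Those that rose were *Gap43*, a growth cone protein of neurons and glia, from 9.7 ± 0.596 to 25.4 ± 5.05 CPM (log2FC 1.36, edgeR adjusted *P* = 0.041), and *L1cam*, an adhesion molecule of axons and glia, from 14.8 ± 3.12 to 33 ± 2.92 CPM (1.15, edgeR adjusted *P* = 0.043). Neither is made by glia alone. *Cdh19*, a cadherin of the glial branch, had 0 and 0 reads in Control against 12 and 30 in *Eya1*cKO, at least 13.5-fold higher against a limit of 3 reads per library (edgeR adjusted *P* = 0.085, not called; range over the alternatives 0.012 to 0.71). *Cdh19* was chosen for mention after its values were seen, and *Msx2*, *Pax3* and *Gldn* of the related lists went the other way.

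Among 12 myelin and mature Schwann cell genes, 10 could be tested, none fell and 1 rose (DESeq2 also called 0 lower and 1 higher). This was *Pmp22*, a membrane protein of peripheral myelin that mesenchymal cells also make, which went from 17.1 ± 1.98 to 51.7 ± 6.15 CPM (log2FC 1.61, edgeR adjusted *P* = 0.0075). *Egr2*, the factor that drives myelination, was at 49.4 ± 4.1 CPM in Control against 41.8 ± 0.426 in *Eya1*cKO (-0.24, edgeR adjusted *P* = 0.4). The median log2FC of this list was -0.29, and the unadjusted *P* in edgeR was under 0.05 for 2 of the 10. *Gldn* had 380 and 364 reads in Control against 0 and 47 in *Eya1*cKO (log2FC -3.13, edgeR adjusted *P* = 0.063, not called). For 2 of the 12 genes both *Eya1*cKO libraries lay above both controls and for 4 both lay below.

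Ligands, partner receptors and processing enzymes of the member receptors held 4 of the called genes. Of 7 neuregulin and ErbB genes, all 7 were tested and 2 rose, with a median log2FC of 0.71. *Nrg1*, the neuregulin of axons, had 138 and 160 reads in Control against 483 and 343 in *Eya1*cKO (log2FC 2.32 ± 0.38 SE, edgeR adjusted *P* = 0.014). An antisense gene, *Gm26578*, covers 4.66% of the exonic bases of *Nrg1*, and the strand setting of the counting is not given in the sources used here. *Nrg3* had 10 and 16 reads in Control against 124 and 38 in *Eya1*cKO (log2FC 3.47 ± 0.89 SE, edgeR adjusted *P* = 0.048). It too needed its reads in *Eya1*cKO to pass the low-count filter, and it was past the threshold in 5 of 12 alternatives. The co-receptor *Erbb2* was at 110 ± 3.08 CPM in Control against 115 ± 28.9 in *Eya1*cKO (0.04, 95% interval -0.36 to 0.44). The neuregulin receptor *Erbb4* (9.59 ± 2.15 CPM in Control, 19 ± 3.14 in *Eya1*cKO) and the related *Egfr* (log2FC 0.71) had higher values in *Eya1*cKO with an unadjusted *P* of 0.024 and 0.0063 in edgeR, and neither they nor *Erbb2* and *Erbb3* were called.

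Of 6 endothelin genes, 5 could be tested and 2 rose. *Ednra*, the partner receptor of *Ednrb* that mesenchyme and smooth muscle use, went from 27.8 ± 0.426 to 57.2 ± 13.1 CPM (log2FC 1.06 ± 0.21 SE, edgeR adjusted *P* = 0.028). *Ece1*, the enzyme that cleaves the endothelin precursors, went from 166 ± 10.2 to 262 ± 26.9 CPM (log2FC 0.67 ± 0.10 SE, edgeR adjusted *P* = 0.012). *Edn3*, the ligand that pairs with *Ednrb* in crest development, had 407 and 391 reads in Control against 418 and 155 in *Eya1*cKO and was not called (edgeR adjusted *P* = 0.61). Of 10 neurotrophin genes, 9 could be tested and 0 were called by edgeR or DESeq2. An unadjusted *P* under 0.05 in edgeR was reached by 3, as by 5479 of all 19041 genes tested. *Maged1*, a cytoplasmic partner of Ngfr, was at 708 ± 0.962 CPM in Control against 773 ± 53.3 in *Eya1*cKO (0.13, edgeR adjusted *P* = 0.27). *Sort1*, a co-receptor of Ngfr, was at 132 ± 1.58 and 107 ± 0.708 CPM (-0.31, edgeR adjusted *P* = 0.11).

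**Figure D3:**
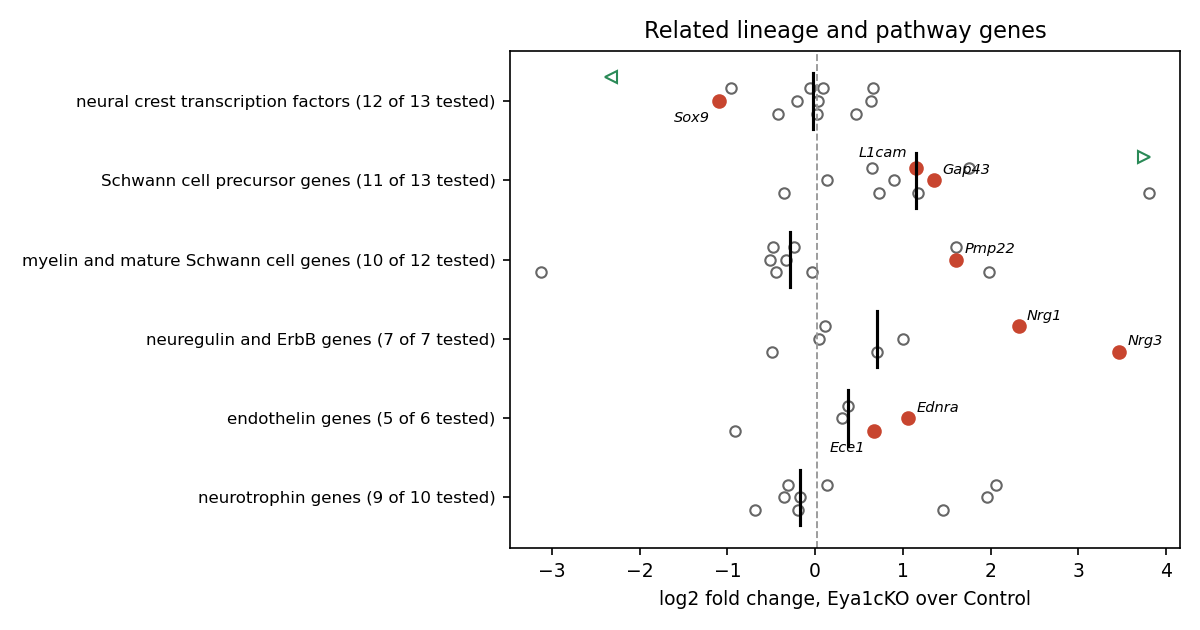
Log2 fold change, *Eya1*cKO over Control, of the tested genes in 6 related lists, with called genes in red and named, other genes as open circles, and green triangles for genes with no read in 1 group, drawn at the bound that 3 reads per library allow. Black bars are list medians and the dashed line the median of all genes tested, at 0.02; the called genes lie to the right except *Sox9*.

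Markers of other cell types moved with *Sox10* and *Sox2*, most of all those of the adrenal gland. The 10 sympathoadrenal markers, genes of the crest-derived chromaffin and sympathetic cells, summed to 36.7 and 43 CPM in Control and to 595 and 611 CPM in *Eya1*cKO, and 9 of the 10 rose. An example is *Th*, the first enzyme of catecholamine synthesis, with 9 and 14 reads in Control against 1075 and 950 in *Eya1*cKO. The exception was *Gata3*, which the ureteric bud also makes and which was not called (edgeR adjusted *P* = 0.26). The 7 adrenal cortex markers, from a tissue that does not come from the crest, summed to 12.1 to 19.1 CPM in Control against 693 to 729 in *Eya1*cKO, and all 7 rose. Without Control 1 and without Control 2, only *Chga*, *Chgb* and *Hsd3b1* of these lists were past the threshold in both fits, with adjusted *P* values up to 0.017, 0.017 and 0.012, while that of *Th* reached 0.089. None of these 17 genes was without a read in any library. Their part in the *Sox10* and *Sox2* values was not tested.

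Of the 7 melanocyte markers 2 could be tested, none was called by edgeR (1 had an unadjusted *P* under 0.05, and DESeq2 called 1), and the pigment genes *Dct*, *Tyrp1* and *Mlana* had 0 reads in all 4 libraries. Of 8 neuronal markers 3 rose and 1 fell, and their sum went from 44 to 45.4 CPM in Control to 88.6 to 92.5 in *Eya1*cKO. *Elavl4*, the one that fell, had 658 and 849 reads in Control against 142 and 98 in *Eya1*cKO. Beside *Ednrb*, whose CPM were also higher in *Eya1*cKO, all 6 endothelial markers rose, with sums of 516 to 526 CPM in Control against 878 to 924 in *Eya1*cKO. None of the 6 was past the threshold when either control library was left out (adjusted *P* up to 0.31 for *Cdh5*, the lowest, and 0.65 for *Tek*, the highest). Beside *Ngfr*, of the 6 renal stroma markers 2 rose and 1 fell, with sums of 871 to 885 CPM against 1065 to 1101. The part of these cell types in the receptor values was not tested. All 6 NPC markers fell, as did 2 of the 5 ureteric bud markers, whose sums were 198 to 209 CPM in Control against 117 to 128 in *Eya1*cKO. The calls of the neuronal, stromal and ureteric bud markers were also lost without either control library, and of the NPC markers *Six2* and *Eya1* were past the threshold in both of those fits. The 4 blood markers summed to 12 to 16.1 CPM in Control against 12.4 to 12.9 in *Eya1*cKO.

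**Figure D4:**
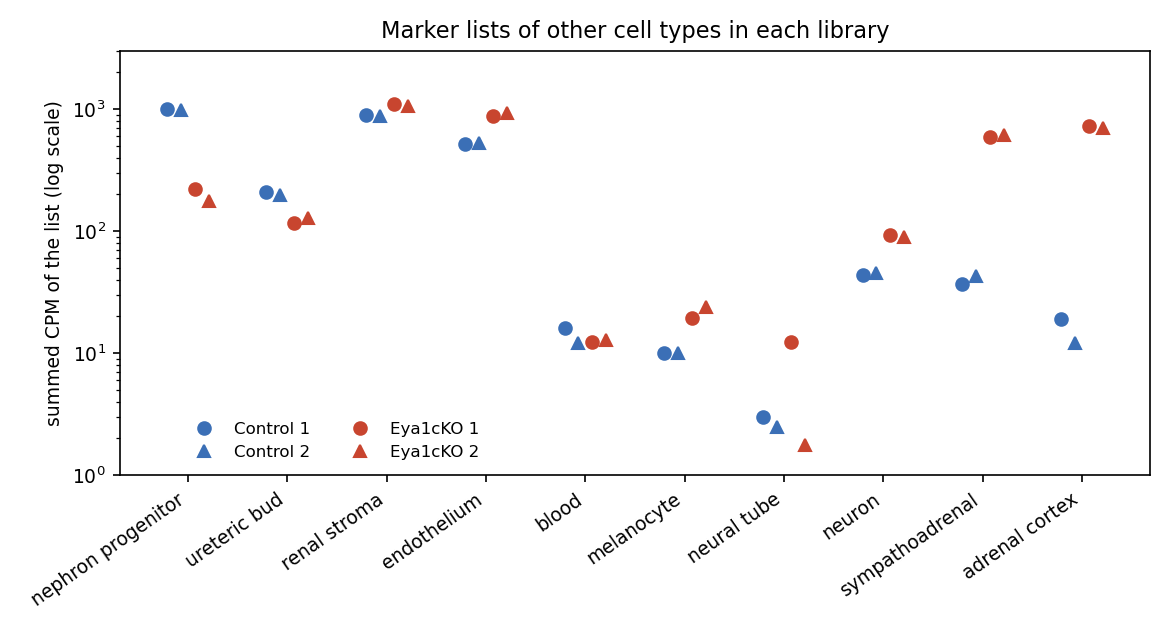
Summed CPM of each marker list in each library on a log axis, with Control in blue, *Eya1*cKO in red, circles for library 1 and triangles for library 2. Sympathoadrenal sums go from 36.7 and 43 to 595 and 611 CPM and adrenal cortex sums from at most 19.1 to at least 693 CPM, nephron progenitor sums fall from 975 or more to 223 or less, and the neural tube sum is high in *Eya1*cKO 1 alone.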

How the data were processed

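RNA of FACS-sorted kidney cells was sequenced by the authors from strand-specific random-primed libraries with single-end 75-bp reads, which they mapped to mm10 with HISAT2 and counted on Ensembl release 90 with HTSeq-count (the strand setting is not given in the sources used here). The deposited values are these counts per gene, without normalization. Entries that name no gene were left out of library sizes, and reads on no gene were 12.9% to 22.7% of all recorded, more in *Eya1*cKO. Samples were grouped by their labels. The tests used edgeR 4.0.16 under R 4.3.3: filterByExpr with a minimum count of 10, TMM factors of 0.9868 to 1.019, and glmQLFit and glmQLFTest (legacy = FALSE) across all genes, and Benjamini-Hochberg adjusted *P* values were held to 0.05. SE was taken as the size of the log2FC divided by √F. As alternatives, DESeq2 1.42.0, other scalings and filters, a block for the replicate number, and fits lacking 1 library were run. Positions and exonic lengths come from GENCODE M21 (GRCm38), a later annotation than the one counted on.

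The members and lists were chosen with earlier results of these data known. By rule, all members, *Eya1*, from each list the called genes (where fewer than 2, the 2 with the most counts), marker genes and the 5 genes nearest in profile to *Sox10* were named. *Sox8*, *Msx2*, *Pax3*, *Cdh19*, *Gldn*, *Erbb2*, *Erbb4*, *Egfr*, *Edn3* and *Sox2ot* fall outside it and were chosen after their values were seen. No group of 2 libraries could be tested for outliers.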

Additional observations from a re-analysis of the deposited data

How the results depend on the processing

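Genes past the threshold numbered 1820 here (5479 at an unadjusted *P* under 0.05) and 621 with the replicate block (4264 at an unadjusted *P* under 0.05). They numbered 1055 without the low-count filter, 1096 with the legacy method and 2734 with DESeq2. With each library left out in turn they ranged from 23 (either control left out) to 7925 (without *Eya1*cKO 2), and without *Eya1*cKO 1 they numbered 7414. A lone library is then assumed to vary like the other group, and the low counts were those in which only the *Eya1*cKO pair gave a spread. Members past the threshold numbered 3 here, and 1 without the low-count filter, 1 with at least 10 counts in every library, 1 with the legacy method and 0 with the replicate block (5 at an unadjusted *P* under 0.05), and with libraries left out they ranged from 0 to 5, the highest number including *Ednrb* and *Fabp7*. Genes of the 6 related lists past the threshold numbered 8 here, and 4 without the filter, 4 with the legacy method, 1 with the block and between 0 and 24 with libraries left out.

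*Sox10* had log2FC values of 5.73 without the filter, 5.79 with the legacy method and 5.77 with the block, and *Sox2* of 4.75, 4.83 and 4.81, with adjusted *P* values between 0.061 and 0.17. *Ngfr* was at -0.69 with the block (0.086). The cause was not tested. With libraries left out the ranges were 4.81 to 9.62 for *Sox10*, 3.81 to 9.85 for *Sox2*, -0.81 to -0.59 for *Ngfr*, 0.45 to 0.74 for *Ednrb* and 0.29 to 2.89 for *Fabp7*. Of 86 values of members under the alternatives none changed sign, 70 stayed on their side of the threshold or within their interval, 13 lost it and 3 gained it. With at least 10 counts in every library, *Sox10*, *Sox2*, *Foxd3* and *S100b* had no value. Same-numbered libraries did not deviate together (correlation 0.0062 over 19041 genes), so the number was not taken to pair them. Few reads limit *Foxd3*, *S100b* and the control values of *Sox10* and *Sox2*, although the controls were the deeper pair.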
